A study of Mus musculus with 30 samples.

Results

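The genes described here are 10 components of the tight junction that were measured in mouse colon. They comprise the 7 claudins Cldn2, Cldn3, Cldn4, Cldn7, Cldn8, Cldn15 and Cldn23, the occludin gene Ocln, and the zonula occludens genes Tjp1 and Tjp3. They were chosen by name from the 46078 genes of the count table, and each matched 1 gene identifier. Earlier results of these data were known at the choice, and the study had named Cldn4 among genes that differed between the sexes on both diets. Counts of members past a threshold therefore do not come from a blind choice. RNA-seq libraries came from the colon of 30 C57BL/6J mice, 1 library per mouse and 6 per group. The study isolated RNA from distal colon tissue and from the epithelial layer, and names distal colon for its E2 result. CD F and CD M were females and males fed control diet (CD) for 13 weeks and injected with vehicle, HFD F and HFD M were females and males fed high-fat diet (HFD) for as long and injected with vehicle, and HFD+E2 M were males fed HFD and given estradiol (E2) at 0.5 mg/kg. All mice received 9 intraperitoneal injections during the last 3 weeks. They were 5 to 6 weeks old at the start, and the females kept their ovaries and were not staged for the estrous cycle. No female received E2 in the libraries analysed here.

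Tight junctions close the space between neighboring epithelial cells below their apical surface. Claudins span the membrane and pair with claudins of the next cell, and the set of claudins present decides which ions and solutes can pass. Cldn2 and Cldn15 form pores for small cations. Cldn3, Cldn4 and Cldn8 are mainly known to tighten the barrier, and Cldn7 and Cldn23 are epithelial claudins of the colon. Ocln encodes a membrane protein of another family that sits in the same strands. Tjp1 and Tjp3 encode cytoplasmic scaffolds, known as zonula occludens proteins, that tie the strands to the actin cytoskeleton.

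In GRCm38 coordinates, Cldn3 (chr5:134986214-134987472, + strand) and Cldn4 (chr5:134945119-134946934, - strand) lie on the same chromosome, and Cldn8 lies at chr16:88560828-88563183 on the - strand. Each of these has 1 exon in GENCODE M21. Their first 60 coding bases are shown because these genes differ in base composition. Levels are set beside a trend with GC content further on. Capitals mark G and C, which make up 41, 37 and 34 of the 60 bases. Over the whole coding sequence the GC content was 64.4% for Cldn3, 61.6% for Cldn4 and 52.9% for Cldn8.
Cldn3: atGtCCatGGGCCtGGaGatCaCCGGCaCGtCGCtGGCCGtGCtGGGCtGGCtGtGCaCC
Cldn4: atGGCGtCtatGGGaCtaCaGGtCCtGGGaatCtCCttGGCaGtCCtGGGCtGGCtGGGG
Cldn8: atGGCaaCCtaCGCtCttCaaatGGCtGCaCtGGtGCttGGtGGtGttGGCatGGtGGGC

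The 250 bases before the start of Cldn4 (GRCm38.p6, chr5:134946935-134947184, - strand, RefSeq) are shown because Cldn4 was the member that differed most between the sexes. Capitals mark both matches to the AP-1 motif TGANTCA, which began 240 and 158 bases before the start.
Cldn4: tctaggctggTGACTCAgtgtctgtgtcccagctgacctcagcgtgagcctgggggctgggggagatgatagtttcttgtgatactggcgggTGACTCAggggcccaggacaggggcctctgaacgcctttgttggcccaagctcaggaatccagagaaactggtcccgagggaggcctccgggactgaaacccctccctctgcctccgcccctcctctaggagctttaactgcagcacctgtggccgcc
Promoter windows of 300 bases were given for 8 of the 10 genes, in 11 windows. The estrogen response element, searched as GGTCA followed by TGACC with any 3 bases between them, had no match in these 11 windows on either strand and was present in 0.0701% of all 32817 windows of this length. AP-1 also matched once in the Cldn15 window, and 7.81% of all windows held it. The E-box CACGTG matched once, in the second Tjp3 window, and was held by 7.15% of all windows. The matches found do not overlap each other, and a match is a description of the window and not a site shown to be bound.

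The libraries held 8667177 to 17243712 counts on genes, with a median of 11530915. The members had between 22 counts, for Cldn4, and 4813 counts, for Tjp1, in a library. Counting error weighed most on Cldn4, with 22 to 267 counts, and on Cldn23, with 44 to 157. The score of 18 intestinal epithelium genes, a mean of log2 CPM (library-scaled counts), had group medians from 7.22 to 7.36, and none of these genes was at 0 in all libraries of a group. In 6 libraries, HFD F 1, 3, 4 and 5 and HFD M 2 and 4, genes of stratified squamous epithelium such as Krt5 and Krt13 were present, with scores from 2.25 to 6.06. The score was at most 0.14 in the others. Smooth muscle genes also differed between groups, with median scores of 8.75 in CD F and 9.5 in CD M. Libraries further differed in how strongly their counts rose or fell with the GC content of a gene. This GC trend ranged from -0.62 in HFD M 1 to 0.35 in HFD+E2 M 4, in log2 units per 10 percentage points of GC.

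All 10 genes were detected in every library (plot of levels by gene). By TPM, which is scaled to gene length, Cldn3 (median 132 over the 30 libraries) and Cldn7 (114) were the most abundant. Cldn8 (57.3), Tjp1 (50.5), Ocln (48.4), Cldn2 (41.4) and Tjp3 (41.2) followed, and Cldn15 (9.09), Cldn4 (6.18) and Cldn23 (5.17) had the lowest levels. The order was not firm between neighbors, since Cldn3 was above Cldn7 in 16 of 30 libraries, Cldn8 above Tjp1 in 19, Tjp1 above Ocln in 17 and Cldn2 above Tjp3 in 13. Tjp3 was above Cldn15 in 30 of 30 libraries, which was the clearest step in the order.

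**Figure D1:**
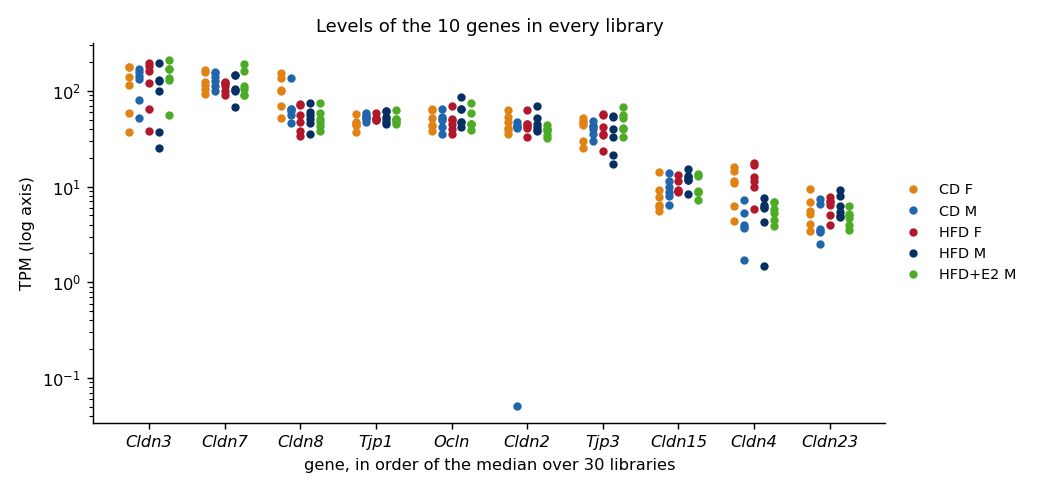
TPM (log axis) of the 10 genes in each of the 30 libraries, colored by group, with the genes in order of their median. Cldn3, Cldn7, Cldn8, Tjp1, Ocln, Cldn2 and Tjp3 formed an upper group with medians from 41.2 to 132, and Cldn15, Cldn4 and Cldn23 a lower group with medians from 5.17 to 9.09. The single low point of Cldn2 is CD M 1, where the TPM value is 0.0517.

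Cldn4 was the member with the clearest sex difference. It was measured at 4.42, 11.3 and 15.9 TPM (lowest, median and highest) in CD F and at 1.71, 3.88 and 7.16 TPM in CD M. All 6 CD females were above the median of the CD males, and by CPM 5 of the 6 were above every CD male. The log2 fold change between females and males on CD was 1.43 (SE 0.34, adjusted p = 0.0363 in the edgeR quasi-likelihood test). Cldn4 was thereby the 1 member of 10 past the adjusted threshold of 0.05, which 2.92% of the 14922 genes tested passed. The exact permutation test of log2 CPM, two-sided, gave p = 0.00866, where 0.00216 is the smallest value that 6 against 6 mice allow. When libraries were omitted singly, the log2 fold change on CD was from 1.24 to 1.66 and the adjusted p from 0.0101 to 0.092, and the call was lost without CD F 2, 3, 4 or 6 and without CD M 1, 2, 3 or 4. It was also lost with the squamous score (1.41, adjusted p = 0.0716) or the smooth muscle score (1.68, adjusted p = 0.145) as covariate, with no filter on low counts (adjusted p = 0.125), with the replicate number as a block (adjusted p = 0.0906) and on TPM (adjusted p from 0.0581 to 0.0943). The groups of no member were free of overlap in any of the 5 pairwise comparisons (0 of 10 members), where 2.18% of the genes tested did not overlap between the sexes on CD, 0.362% between the sexes on HFD, 0.212% between diets in females, 0.354% between diets in males and 0.413% between E2 and vehicle.

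On HFD, Cldn4 was measured at 5.80, 12.1 and 17.7 TPM in females and at 1.48, 6.02 and 7.67 TPM in males. Again all 6 females were above the male median and 5 of 6 were above every male by CPM. The log2 fold change was 1.24 (SE 0.35, unadjusted p = 0.00327, adjusted p = 0.746), and the exact permutation test gave p = 0.00649. No member of 10 passed the adjusted threshold in this comparison, which 0.0988% of 15179 genes passed. Cldn4 was the only member with an unadjusted p under 0.05 and a log2 fold change over 0.4, the threshold of the study, which 3.09% of the genes passed on HFD. Squamous genes were present in 4 of the 6 HFD females. In the other two, HFD F 2 and 6, Cldn4 was at 11.4 and 5.80 TPM, beside 1.48 to 6.44 TPM in the 4 HFD males low in squamous genes. Without the 6 libraries high in squamous genes the log2 fold change was 0.89 (unadjusted p = 0.146, adjusted p = 1, 2 females against 4 males).

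Averaged over both diets in the fit of 24 libraries, Cldn4 was higher in females by a log2 fold change of 1.33 (SE 0.26, adjusted p = 0.00593). It was the 1 member past the adjusted threshold, which 2.20% of 15800 genes passed. At the threshold of the study it was likewise the 1 member, beside 5.58% of the genes. The adjusted call held in 24 of 24 fits with a library omitted, with log2 fold changes from 1.23 to 1.45. It was lost without the 6 libraries high in squamous genes (1.16, unadjusted p = 0.00311, adjusted p = 0.126). With the squamous score, the smooth muscle score or the GC trend in the fit, the log2 fold change was 1.20, 1.58 or 1.16, and the adjusted p was 0.00941, 0.00575 or 0.0053. The diet contrast of Cldn4 was small beside its error in both sexes, with log2 fold changes of 0.12 (SE 0.30) in females and 0.30 (SE 0.37) in males, and the interaction of sex and diet was -0.19 (SE 0.51, adjusted p = 0.945). Since colon tissue and not separated cells was sequenced, a greater number of cells that express a gene and more RNA per cell cannot be told apart.

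**Figure D2:**
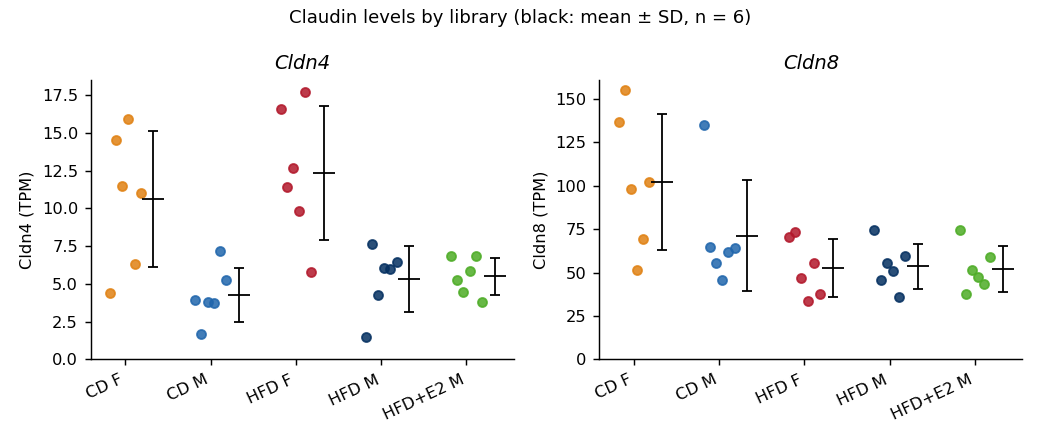
TPM of Cldn4 (left) and Cldn8 (right) in each library of the 5 groups, with the mean ± SD of 6 libraries in black. Cldn4 had means of 10.6 in CD F and 12.3 in HFD F and from 4.27 to 5.51 in the 3 male groups, with some overlap of single libraries. Cldn8 had means of 102 in CD F and 71.2 in CD M and from 52.3 to 53.6 in the 3 groups fed HFD.

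Cldn8, a claudin of the distal colon that tightens the barrier to cations, was the member with the clearest difference between diets. It was measured at 51.6, 100 and 155 TPM in CD F and at 33.5, 51 and 73.3 TPM in HFD F. All 6 HFD females were below the median of the CD females, and by CPM 3 of the 6 were below every CD female. The log2 fold change of HFD against CD in females was -1.03 (SE 0.21, unadjusted p = 0.000178, adjusted p = 0.335), and the exact permutation test gave p = 0.00866. It was the 1 member at the threshold of the study, which 3.67% of 15061 genes passed, and none passed the adjusted threshold, which 0.0199% passed. The adjusted p was 0.000491 by DESeq2 and 0.0257 with all 30 libraries in 1 fit, and without CD F 4 the log2 fold change was -1.16 (adjusted p = 0.0212). Without the 4 females high in squamous genes the log2 fold change was -0.97 (unadjusted p = 0.0106, adjusted p = 1).

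In males, Cldn8 was measured at 46.0, 62.8 and 135 TPM on CD and at 35.7, 53.2 and 74.4 TPM on HFD. The highest value, 135 TPM in CD M 1, stood far from the other CD males, which ranged from 46.0 to 65.0 TPM. The log2 fold change of HFD against CD was -0.44 (SE 0.19, unadjusted p = 0.0334, adjusted p = 0.823), with an exact permutation p = 0.0714, and was -0.22 without CD M 1. Cldn8 was the 1 member at the threshold of the study, which 2.90% of 14991 genes passed. None passed the adjusted threshold in males, which 0% of the genes passed (0 genes by edgeR, 6.03% at an unadjusted p under 0.05).

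Averaged over both sexes, Cldn8 was lower on HFD by a log2 fold change of -0.74 (SE 0.15, adjusted p = 0.0366). It was the 1 member past the adjusted threshold, which 0.443% of 15800 genes passed. At the threshold of the study it was also the 1 member, beside 2.78% of the genes. With single libraries omitted, the log2 fold change was from -0.80 to -0.63 and the adjusted p from 0.012 to 0.114, and the call held in 9 of 24 fits. It was lost without any CD F library other than CD F 4, any CD M library other than CD M 4, HFD F 1, 3 or 4, or HFD M 2 or 4. It was also lost with the squamous score in the fit (-0.65, adjusted p = 0.443) and without the 6 libraries high in squamous genes (-0.68, unadjusted p = 0.00396, adjusted p = 0.539). The call was lost as well with no filter on low counts, with at least 10 counts in every library, with the epithelium score and on TPM. The diet contrast was larger in females, but the interaction of -0.59 (SE 0.30, unadjusted p = 0.0614, adjusted p = 0.736) did not pass either threshold. No member passed them for the interaction, beside 0% of the genes at the adjusted threshold (0 genes by edgeR, 6.75% at an unadjusted p under 0.05) and 5.18% at the threshold of the study.

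Cldn8 also differed between the sexes on CD at the threshold of the study, together with Cldn4 (2 of 10 members, beside 9.15% of all genes tested). Its log2 fold change of females against males was 0.63 (SE 0.23, unadjusted p = 0.0172, adjusted p = 0.197), with an exact permutation p = 0.0433, and with single libraries omitted it was from 0.50, without CD F 2, to 0.84, without CD M 1. The adjusted p was then from 0.0245 to 0.367, and 1 of 12 fits, that without CD M 1, passed the adjusted threshold. All 10 smooth muscle genes were lower in CD F at the threshold of the study, beside 927 of all 14922 genes tested. At the adjusted threshold 6 of the 10 were lower, beside 319 of all genes tested. Once the smooth muscle score was a covariate, Cldn8 differed by -0.03 (unadjusted p = 0.907). The score itself differed between CD F and CD M, so that this fit cannot fully separate it from sex. With group means removed over the 30 libraries, Cldn8 had r = -0.38 with this score (permutation p = 0.0491, adjusted p = 0.134). The part of smooth muscle in the Cldn8 difference was not tested. The sex difference on HFD was 0.04 (SE 0.15).

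The channel-forming claudins showed small differences in the fits without covariates. Cldn2 by CPM had group medians from 89.7 to 105, and its 30 libraries ranged from 76.6 to 140. Its log2 fold changes ranged from -0.14 to 0.10 over the 5 pairwise comparisons, with SE from 0.09 to 0.13, and none had an unadjusted p under 0.05. CPM is given for Cldn2 because the TPM value of CD M 1 is 0.0517, while the same library has 1510 counts of Cldn2. Its TPM in the other 29 libraries ranged from 32.3 to 69.5. Cldn15 was measured at 5.60, 7.11 and 14.2 TPM in CD F, 8.85, 9.09 and 13.3 TPM in HFD F, 6.49, 9.28 and 13.7 TPM in CD M and 8.44, 12.2 and 15.1 TPM in HFD M. Averaged over both sexes, the log2 fold change of HFD against CD was 0.25 (SE 0.11, unadjusted p = 0.0337, adjusted p = 0.716), opposite in sign to Cldn8 and below the fold change of the study's threshold. For females against males, Cldn15 was -0.13 (SE 0.17) on CD and -0.25 (SE 0.13) on HFD. With the smooth muscle score as covariate, the value on CD was -0.60 (unadjusted p = 0.0149, adjusted p = 0.138), past the threshold of the study. Over both diets, Cldn15 passed the adjusted threshold with this covariate.

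Cldn3, Cldn7 and Cldn23 did not pass either threshold in any of the 5 pairwise comparisons. Cldn3 had the widest range of the abundant members, from 25.4 to 210 TPM, and this range was similar within groups, from 36.8 to 178 in CD F and from 25.4 to 195 in HFD M. Its log2 fold changes therefore had SE from 0.44 to 0.60. The libraries with the lowest sample numbers were replicate 1 of each group and replicate 2 of CD F, HFD F and HFD M. In these libraries Cldn3 was at 19.7 to 52.6 CPM, beside 76.6 to 213 CPM in all others. Tjp3 was at 35.0 to 75.7 CPM in them, beside 74.7 to 169 CPM in the others. The part of sample order in these levels was not tested. Cldn7 was steadier, with 67.0 to 191 TPM and SE from 0.11 to 0.23, and its log2 fold changes ranged from -0.29 to 0.31. Cldn23 was measured at 3.45, 5.36 and 9.32 TPM in CD F, 2.49, 3.53 and 7.47 in CD M, 3.98, 6.67 and 7.72 in HFD F and 4.86, 5.85 and 9.15 in HFD M. Its largest log2 fold changes were 0.45 (SE 0.25, unadjusted p = 0.092) for females against males on CD and 0.49 (SE 0.25, unadjusted p = 0.0681) for HFD against CD in males. With the smooth muscle score in the fit, the first of these was -0.12, and in the same fit Cldn3 went from 0.10 to 1.70 (unadjusted p = 0.00934, adjusted p = 0.109), past the threshold of the study.

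Ocln and the scaffolds also stayed below both thresholds in the 5 pairwise comparisons. Ocln was measured at 35.3 to 86.3 TPM, and its log2 fold changes ranged from -0.23 to 0.19. Tjp1 was the steadiest of the members, at 37.1 to 63.7 TPM in all libraries, with log2 fold changes from -0.07 to 0.12 and SE from 0.10 to 0.12. Tjp3 ranged from 17.4 to 67.1 TPM, and its log2 fold changes from -0.14 to 0.54.

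**Figure D3:**
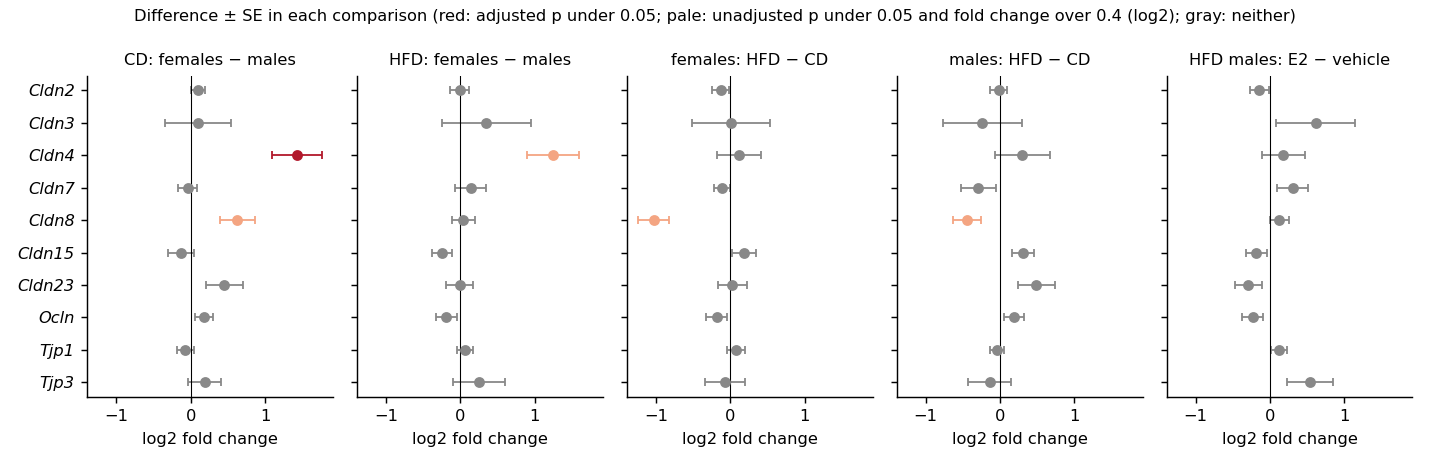
Log2 fold change ± SE (edgeR) of the 10 genes in the 5 pairwise comparisons, with each direction given above its panel. Cldn4 on CD (1.43) is the only red point, past the adjusted threshold, and Cldn4 on HFD (1.24) and Cldn8 in the sex comparison on CD (0.63) and in both diet comparisons (-1.03 and -0.44) are the pale points.

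E2 given to HFD males changed no member at either threshold (0 of 10 members). The adjusted threshold was passed by 0.00666% of 15010 genes and the threshold of the study by 5.87%, and no member had an unadjusted p under 0.05, where 10.2% of the genes did. By DESeq2 and with the GC trend, a composition score or TPM in the fit, 0 members passed the adjusted threshold as well. Cldn4 was measured at 3.83, 5.55 and 6.84 TPM with E2 and at 1.48, 6.02 and 7.67 TPM with vehicle, with a log2 fold change of 0.18 (SE 0.29). Cldn8 was measured at 37.6, 49.4 and 74.8 TPM with E2 and at 35.7, 53.2 and 74.4 TPM with vehicle, with a log2 fold change of 0.13 (SE 0.13). The Cldn4 values with E2 lay within the range of those with vehicle, and the Cldn8 ranges nearly coincided. The largest log2 fold changes were those of Cldn3, 0.62 (SE 0.53, unadjusted p = 0.264), and Tjp3, 0.54 (SE 0.31, unadjusted p = 0.104). With the GC trend of the library in the fit they were 0.08 and 0.11.

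The levels of 6 of the 10 members were related to the GC trend of the library at an adjusted p under 0.05, and 22 of the 45 pairs of members were related to each other (14 on TPM). The shares among all genes were not computed, so that these counts do not set the members apart from other genes. Cldn3 and Tjp3 were both low in the libraries with the lowest sample numbers, and the part of sample order in the relations was not tested. The relations of Cldn3 and Tjp3 were the closest (plot of levels against the GC trend). With group means removed, Pearson's r between them was 0.94 over the 30 libraries (Spearman's rho 0.90, both p = 1e-05 in a permutation test within groups, the smallest that 100000 permutations can give, adjusted p = 0.000225 and 0.00045 over 45 pairs), and r was 0.92 without HFD F 2 and HFD M 1. Their transcripts have the highest GC contents of the members, 62.7% and 60.7%, and that of Cldn8 the lowest, 40.6%. The correlation with the GC trend was 0.91 for Tjp3 (rho 0.88, both p = 1e-05, adjusted p = 5e-05 and 0.0001 over 10 relations) and 0.79 for Cldn3 (rho 0.72, p = 1e-05 and 6e-05, adjusted p = 5e-05 and 0.0003). Without HFD M 1 and HFD M 5 it was 0.87 and 0.71. Cldn7 had r = 0.76 (rho 0.67, permutation p = 0.00022 and 0.00106, adjusted p = 0.000733 and 0.00353), and 0.59 without these libraries. Cldn2 had r = -0.64 (rho -0.57, permutation p = 0.00089 and 0.0046, adjusted p = 0.00222 and 0.0115) and Ocln r = -0.56 (rho -0.51, permutation p = 0.00183 and 0.00757, adjusted p = 0.00366 and 0.0151), and these were -0.62 and -0.59 without them. Cldn4, with 56.8% GC, had r = 0.54 (rho 0.41, permutation p = 0.00818 and 0.0324, adjusted p = 0.0136 and 0.054), which was 0.29 without these libraries and so rested on them. Cldn8 had r = -0.28 (rho -0.22, permutation p = 0.0704 and 0.257, adjusted p = 0.088 and 0.321), and -0.19 without them. The group medians of the GC trend were 0.0133 in CD F, 0.0348 in CD M, 0.0471 in HFD F, -0.104 in HFD M and 0.0805 in HFD+E2 M. With the trend in the fit, the sex difference of Cldn4 was 1.38 on CD (adjusted p = 0.0226) and 0.96 on HFD (unadjusted p = 0.00561, adjusted p = 0.855).

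**Figure D4:**
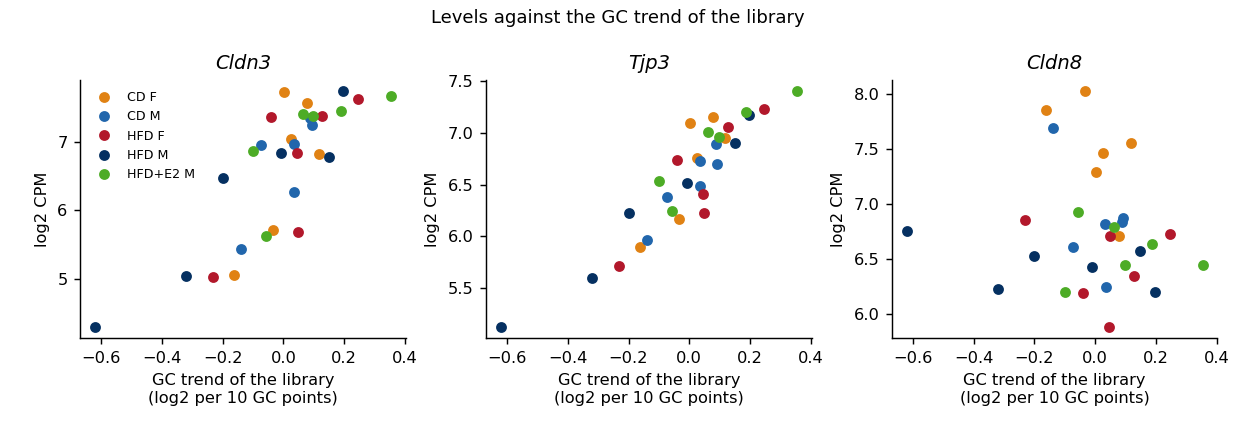
Log2 CPM of Cldn3, Tjp3 and Cldn8 against the GC trend of each of the 30 libraries, colored by group. The levels of Cldn3 and Tjp3 increase with the trend, with r of 0.79 and 0.91 after group means were removed, and those of Cldn8 do not (r = -0.28). The leftmost point in each panel is HFD M 1.

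The relation of the members to tissue composition was examined in 30 relations, of 10 genes with the scores of intestinal epithelium, squamous epithelium and smooth muscle. The share of all genes with such relations was not computed. Of the 30 relations, 4 had an adjusted p under 0.05, and each was with the smooth muscle score. Cldn3 had r = 0.71 (rho 0.70, permutation p = 4e-05 and 0.00012, adjusted p = 0.0012 and 0.0036) and Tjp3 r = 0.64 (rho 0.62, permutation p = 0.00065 and 0.00142, adjusted p = 0.00487 and 0.0106). Ocln had r = -0.70 (rho -0.66, permutation p = 0.00016 and 0.00047, adjusted p = 0.0024 and 0.005) and Cldn15 r = -0.62 (rho -0.62, permutation p = 0.00041 and 0.0005, adjusted p = 0.0041 and 0.005). Without CD M 1 and HFD+E2 M 4 these were 0.70, 0.60, -0.67 and -0.57. On TPM 3 of the 30 relations had an adjusted p under 0.05, and that of Ocln was lost (r = -0.50, rho -0.46, permutation p = 0.0102 and 0.0208, adjusted p = 0.0613 and 0.128). The epithelial genes Cldn3 and Tjp3 were thus higher, and Ocln and Cldn15 lower, in libraries with more smooth muscle RNA. The parts of composition and of sample order in these relations were not tested. Cldn4 had r = 0.34 with the squamous score (rho 0.30, permutation p = 0.106 and 0.134, adjusted p = 0.245 and 0.287), which was 0.20 without HFD F 6 and HFD M 2.

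The genes whose log2 CPM over the 30 libraries was most like a member, among 15442 genes with a mean of at least 1 TPM, are given as a description. Group means were not removed here, so that differences between groups are part of these correlations. For Cldn4 they included Bnipl (r = 0.76) and Sdc1, a cell surface proteoglycan of epithelial cells (0.76). For Cldn8 they were Mief1, a mitochondrial fission factor (0.80), the pseudogene Actg-ps1 (0.77) and Piga, of glycolipid anchor synthesis (0.76). For Cldn2 they were Soat1, a cholesterol esterifying enzyme (0.79), Tomm70a, of mitochondrial protein import (0.79), and Prpf8, of the spliceosome (0.78). For Cldn15 they were Mpi, a mannose phosphate isomerase (0.79), Akr1c14 (0.78) and Gstt3, a glutathione transferase (0.70).

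Among the other genes of the junction, few passed a threshold. Of 16 other claudins matched, 3 had enough counts for a test, Cldn1, Cldn5 and Cldn12. On CD, 0 of these 3 passed the adjusted threshold between the sexes, and Cldn5, the claudin of blood vessels, was lower in females at the threshold of the study (log2 fold change -0.63, SE 0.24, unadjusted p = 0.0179, adjusted p = 0.201). Cldn5 was a gene of low level, at 0.789 to 2.94 CPM over the 30 libraries. Of 9 endothelial genes, 5 were also lower in CD females at this threshold, beside 927 of all 14922 genes tested. The part of endothelium in the Cldn5 value was not tested. Of 11 other membrane proteins of the junction, 1 was higher and 1 lower in CD females at the adjusted threshold, which 2.92% of all genes tested on CD passed, with a median log2 fold change of 0.07 beside 0.01 for all genes tested. The higher was Marveld2, tricellulin, found where 3 cells meet (0.42, SE 0.10, adjusted p = 0.0326), and its value on HFD was 0.01 (SE 0.10). The Marveld2 call on CD held in 4 of 12 fits with a library omitted, namely without CD F 3, 4 or 5 or CD M 1, with adjusted p from 0.0133 to 0.0882. Of the 5 lists, Marveld2 (-0.41, SE 0.14, unadjusted p = 0.00639, adjusted p = 0.603) and Pard6g (0.86, SE 0.33, unadjusted p = 0.0152, adjusted p = 0.655) had the smallest p for the interaction of sex and diet, which 0 list genes passed at the adjusted threshold. The lower was Ildr2, an angulin of the same sites (-0.93, SE 0.20, adjusted p = 0.0157).

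Ildr2 was a gene of low level, with 0.280, 0.504 and 0.593 TPM in CD F and 0.554, 1.05 and 1.26 TPM in CD M. On HFD it was measured at 0.310, 0.368 and 0.596 TPM in females and at 0.553, 0.919 and 1.43 TPM in males, and by log2 CPM these groups did not overlap, which held for 0.362% of the genes tested. The log2 fold change on HFD was -1.17 (SE 0.21, adjusted p = 0.0408), with an exact permutation p = 0.00216, and over both diets it was -1.05 (SE 0.14, adjusted p = 6.33e-05). Without the libraries high in squamous genes the value on HFD was -1.05 (adjusted p = 1), and with single libraries omitted the call on HFD was lost except without HFD F 2, HFD M 4 or HFD M 5. By log2 fold change, Ildr2 was thus lower and Cldn4 higher in females on both diets, but Cldn4 did not pass the adjusted threshold on HFD (adjusted p = 0.746).

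Of 18 other scaffolds and polarity genes, Mpdz was the 1 gene past the adjusted threshold, lower in CD females (-0.48, SE 0.10, adjusted p = 0.0196), and the median of the list was 0. Over both diets Mpdz was lower in females by a log2 fold change of -0.35 (SE 0.07, adjusted p = 0.0115). Of 13 junction regulators, Mylk, which encodes myosin light chain kinase and is abundant in smooth muscle, was the 1 gene past it, also lower in CD females (-0.53, SE 0.13, adjusted p = 0.037, median of the list 0.07). With a library omitted, the call of Mpdz was lost without CD F 6, CD M 2 or CD M 3 (adjusted p up to 0.0565), and that of Mylk held in 3 of 12 fits, without CD F 3, CD M 1 or CD M 6 (adjusted p up to 0.0975). On CD, Mpdz and Mylk were -0.19 and 0.01 once the smooth muscle score was a covariate, and the part of smooth muscle in their values was not tested. At the same background of 2.92%, none of 15 adherens junction and desmosome genes passed it (median 0.05), and the smallest p among them was that of Pvrl2, which encodes nectin-2, with 0.39 (SE 0.11, unadjusted p = 0.00186, adjusted p = 0.057). On HFD, Ildr2 was the 1 gene of the 5 lists past the adjusted threshold between the sexes. Wnk4, Pvrl1 and Pvrl4 were higher in females at the threshold of the study, which 3.09% of the genes passed, with log2 fold changes of 0.56, 1.24 and 1.19. Among HFD females, Pvrl1 and Pvrl4 were highest in HFD F 3, high in squamous genes (21.8 and 24.4 CPM). They were lowest in HFD F 2 (3.58) and HFD F 6 (4.02), both low in squamous genes. HFD males had 2.48 to 7.04 and 3.15 to 7.44 CPM. The part of squamous epithelium in these sex differences was not tested.

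On HFD against CD in females, 0 genes of these 5 lists passed the adjusted threshold. The smallest p of the other claudins was that of Cldn1, a claudin also of stratified epithelia, with a log2 fold change of 1.11 (SE 0.26, unadjusted p = 0.000511, adjusted p = 0.41), and of the desmosome genes that of the cadherin Dsc2 (0.36, SE 0.10, unadjusted p = 0.00198, adjusted p = 0.444). Among regulators it was that of Grhl1, an epidermal transcription factor (2.36, SE 0.71, unadjusted p = 0.00588), among scaffolds that of the polarity gene Pard6g (0.77, SE 0.27, unadjusted p = 0.012) and among membrane proteins that of Marveld2 (-0.30, SE 0.10, unadjusted p = 0.0099). Of the adherens junction genes, Pvrl1 and Pvrl4 were 1.03 (unadjusted p = 0.0121) and 1.09 (unadjusted p = 0.0139). Of 7 squamous epithelium genes tested in the same comparison, 6 were higher at the threshold of the study, beside 444 of all 15061 genes tested. The median log2 fold change of the 7 was 3. The part of squamous epithelium in the values of Cldn1, Grhl1, Pvrl1 and Pvrl4 was not tested. Averaged over both sexes, 0 genes of the 5 lists passed the adjusted threshold for diet, and the smallest p were those of Cldn1 (0.76, SE 0.20, unadjusted p = 0.000728, adjusted p = 0.102) and Grhl1 (1.78, SE 0.48, unadjusted p = 0.00137, adjusted p = 0.149).

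On HFD against CD in males, 0 genes of the 5 lists passed the adjusted threshold. The smallest p were those of the polarity scaffold Mpp5 (0.29, SE 0.10, unadjusted p = 0.0108, adjusted p = 0.716) and the scaffold Magi2 (-0.37, SE 0.16, unadjusted p = 0.034, adjusted p = 0.823), and Wnk4, a kinase that regulates ion transport, was the 1 gene at the threshold of the study (-0.52, SE 0.23, unadjusted p = 0.0384). With E2 in HFD males, 0 genes passed the adjusted threshold. At the threshold of the study, Wnk4 (0.72, SE 0.26, unadjusted p = 0.0154), the membrane protease St14 (0.47, SE 0.14, unadjusted p = 0.00263) and the occludin relative Marveld3 (0.42, SE 0.13, unadjusted p = 0.00529) were higher, and Cldn1 was lower (-0.72, SE 0.28, unadjusted p = 0.0198). Each had an adjusted p from 0.454 to 0.461. No HFD+E2 male was high in squamous genes, beside 2 of the 6 HFD males.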

How the data were processed

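The RNA was depleted of ribosomal RNA and made into stranded total RNA libraries. Per the labels' processing notes, reads were demultiplexed with bcl2fastq 2.19.1.403, trimmed with Trim Galore and mapped to GRCm38 (mm10) with STAR. The authors deposited featureCounts counts per gene without normalization, and StringTie TPM values per gene and library, which were used as deposited, with repeated identifiers summed. The counts of 30 of 30 libraries correlated best with the TPM of the same library.

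Counts were compared between groups with edgeR 4.0.16 in R 4.3.3 (filterByExpr, TMM, robust quasi-likelihood F-test), with Benjamini-Hochberg adjustment over all genes tested and an adjusted p under 0.05 as the call. The threshold of the study was read as an unadjusted p under 0.05 together with an absolute log2 difference above 0.4. The 5 pairs of groups were fitted on their 12 libraries, and the averages over diets and sexes and the interaction on the 24 vehicle libraries. CPM are TMM-scaled, log2 CPM used a prior count of 2, and a score is the mean log2 CPM of listed genes with a mean over 0.1 CPM. The GC trend is the slope of log2 CPM on transcript GC content (GENCODE M21) over 11345 genes, members left out. Correlations of members with scores, with the GC trend and with each other had group means removed and used 100000 permutations within groups. Those with the genes most like a member were Pearson correlations with group means kept and without a test. Alternatives were DESeq2 1.42.0, its size factors, other filters on low counts, a joint fit of the 30 libraries, a replicate block, composition scores as covariates, limma 3.58.1 on log2 TPM with 0.1 or 1 added, and each library left out. The GC trend, the fits without libraries high in squamous genes (score over 1) and the pairs of members were chosen after seeing the data. Cldn25 was not matched by name. The genes and lists were chosen with earlier results of these data known. Members were named or counted with their range. Genes of the pathway lists were named where they passed the adjusted threshold (at most 5 each way) and otherwise as the 2 with the smallest p, and other list genes were named after their values were seen. The 3 genes most like Cldn4, Cldn8, Cldn2 and Cldn15 were named, except 1 that is not reported here. The tests were tried on simulated counts with known changes. Each library is 1 mouse, and litters or cages were not given in the sources used here. Reads carried no molecular identifiers.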

Additional observations from a re-analysis of the deposited data

Results flagged for a closer look

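In 4 cases 1 library of a group of 6 stood apart from the others, with a gap to the nearest library above Dixon's 95% critical value, which chance gives for about 1 in 20 groups. There were 55 groups examined. Cldn2 in CD M 1 had 0.0517 TPM, beside 40.5 to 46.7 TPM in the other CD males, while its CPM in that library was within the range of the group. Cldn8 in CD M 1 had 135 TPM, beside 46.0 to 65.0 TPM in the other 5. Tjp1 had 59.3 TPM in HFD F 4, beside 49.5 to 51.5 TPM, and 63.7 TPM in HFD+E2 M 5, beside 44.8 to 50.8 TPM. By CPM neither Tjp1 library stood apart, at 299 beside 287 for the next HFD female and 315 beside 313 for the next HFD+E2 male.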

How the results depend on the processing

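For females against males on CD, the 1 member past the adjusted threshold became 0 with no filter on low counts, with the squamous or smooth muscle score as covariate and on log2(TPM + 0.1), log2(TPM + 1) or a mean of at least 1 TPM, and 0 to 1 when 1 library was left out. The 2 members at the threshold of the study became 1 on the 3 TPM scales, 3 with the smooth muscle score (Cldn3, Cldn4 and Cldn15, with Cldn8 lost), 3 with the epithelium score and with all 30 libraries (Cldn23 added), and 1 to 3 with a library left out. With the smooth muscle score, Cldn8 was -0.03, Cldn23 -0.12 and Mylk 0.01, each of opposite sign. On HFD the 1 member at the threshold of the study became 2 with the replicate block and 0 without the libraries high in squamous genes. For diet in females, 0 members past the adjusted threshold became 1, Cldn8, by DESeq2, with all 30 libraries in 1 fit and with the replicate block, and 0 to 1 with a library left out. For diet in males, the 1 member at the threshold of the study became 2 with all 30 libraries, 0 with the squamous score and without the libraries high in squamous genes, and 0 to 2 with a library left out. With E2, 0 members at that threshold became 1 (Tjp3) with the replicate block and 0 to 1 with a library left out. For sex over both diets, the 1 member past the adjusted threshold became 2 (Cldn4 and Cldn15) with the smooth muscle score and 0 without the libraries high in squamous genes, and the 1 at the threshold of the study became 4 with the smooth muscle score, 2 with no fold change minimum and 1 to 2 with a library left out. For diet over both sexes, the 1 member past the adjusted threshold became 0 with no filter, with at least 10 counts in every library, with the epithelium or squamous score, on the 3 TPM scales and without the libraries high in squamous genes, and 0 to 1 with a library left out, and the 1 at the threshold of the study became 2 with the epithelium score and with no fold change minimum. For the interaction, 0 members at that threshold became 1 by DESeq2, with all 30 libraries and with the replicate block, and 0 to 2 with a library left out. The cause of these shifts was not tested, except that fits without libraries had fewer samples.

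The labels do not say what a replicate number stands for, but within each group it rises with the sample number. The part of sample order in the fits with the replicate block was not tested. The deviations of libraries with the same number had a median correlation of 0.112, beside -0.027 for other pairs, with 33 of 60 over 0.1 and the lowest at -0.25, so that pairing was not assumed and is not excluded. For diet in females the replicate block took Cldn8 from an adjusted p of 0.335 to 0.00188. With the replicate block on CD, Cldn4 was 1.39 (adjusted p = 0.0906) and Cldn8 0.64 (adjusted p = 0.00368), so that the count stayed at 1 with another gene. Over both diets Cldn4 was 1.37 with the block (adjusted p = 0.00693). Depth limits Cldn4 and Cldn23 most, with 22 to 267 and 44 to 157 counts per library.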
